A study of Mus musculus with 8 samples.

Results

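The genes described here are 31 complement components, receptors and regulators, followed across 4 groups of primary mouse hepatocyte cultures. They were chosen by gene symbol or older synonym, and 29 of the 19938 genes tested were members with a value; C3 and Cfd were not analysed here. Of those with a value, 18 of 19 listed were classed as hepatocyte-made, 7 of 7 as macrophage-made and 4 of 5 as other or widely expressed, and each was read by 1 probe set. Complement is a set of plasma and membrane proteins that tags microbes and damaged cells for uptake, calls in leukocytes and can perforate membranes. The classical and lectin pathways start from recognition proteins with attached proteases, the alternative pathway amplifies any start, and all meet at C3 before a terminal pathway assembles the membrane attack complex. Hepatocytes make most of the plasma components, whereas C1q, properdin, ficolin A and the receptors for the fragments C3a and C5a are largely products of macrophages and their relatives.

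The RNA came from primary hepatocytes, the parenchymal cells of the liver, which had been perfused with collagenase out of male BALB/c mice and enriched on Percoll; no age is stated for them. Heme oxygenases 1 and 2 (HO1, HO2) break heme down to carbon monoxide, biliverdin and iron, and the title of the series sets the study in the question of carbon monoxide metabolism and circadian transcription. The 4 groups of 2 arrays were control (HO1+/+ with scrambled shRNA), HO1 knockout (HO1-/- with scrambled shRNA), HO2 knockdown (HO1+/+ with HO2 shRNA) and combined (HO1-/- with HO2 shRNA). All groups carried a lentiviral hairpin, went through puromycin from 24 h after transduction with 3 days of selection, had 1 µM dexamethasone for 30 min, and were collected 28 h after it. A single hairpin against HO2 was used, no untransduced or dexamethasone-free cells were analysed here, and the HO1 genotype is that of the mice, so other cells in a preparation carry it too. Replicates are called biological without saying whether they were separate animals or cultures, so p-values reflect only how far these samples vary, and cell preparation and HO1 genotype cannot be told apart.

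Values are log2 signal, given as array 1 and array 2 of a group. Array medians ran from 7.61 to 7.70, and across genes the 2 arrays of a group had a Pearson's r of 0.997 to 0.999. The log2 signal of Hmox2 was 11.41 and 11.57 in control, 11.59 and 11.60 in HO1 knockout, 8.32 and 8.38 in HO2 knockdown, and 9.26 and 9.33 in combined. That of Hmox1 was 11.46 and 11.40, 11.98 and 11.97, 11.54 and 11.57, and 12.40 and 12.47 in the same order. Hmox1 was thus not low in the arrays labelled HO1-/-. No source used here gives the deleted exons, so this signal checks nothing, and every direction for HO1 rests on the labels. The hepatocyte genes Alb (log2 signal 13.32 to 13.99 over the 8 arrays) and Ttr (12.70 to 13.62) were above these medians in all arrays. They were picked from 16 measured hepatocyte markers. Of these, Asgr1 (6.97 to 7.17) and Cyp2e1 (6.14 to 6.98) were below the medians in all arrays. Cyp3a11 and G6pc were below them in control and HO1 knockout, and the other measured markers were above them in all arrays.

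Promoters of 5 members are shown as examples. C1qb, C1qc and Fcna differed by HO1 genotype, as did macrophage-made members not shown, and Vtn and Mbl2 differed with both perturbations. RefSeq's promoter table (GRCm38.p6) had an entry for 22 of the 29 measured members. Each sequence is the 250 bases before the annotated start, 5′ to 3′ on the gene's strand, at chr4:136886201-136886450 (minus) for C1qb, chr4:136892915-136893164 (minus) for C1qc, chr2:25627975-25628224 (minus) for Fcna, chr11:78498870-78499119 (plus) for Vtn and chr19:30232678-30232927 (plus) for Mbl2. Capitals mark matches on either strand to the motifs searched, which were the ETS/PU.1 core GAGGAA, C/EBP TTNNGNAA, STAT TTCNNNGAA, GTTAAT of HNF1, AGAACA of the glucocorticoid receptor and the E-box CACGTG. No capitals are due in Mbl2. The start used for Fcna lies inside the gene's annotated span, chr2:25624665-25635440, and so does its whole window. The windows of Cd55, Hc and Masp2, which are not shown but are counted below, also lie inside their genes' spans.
C1qb: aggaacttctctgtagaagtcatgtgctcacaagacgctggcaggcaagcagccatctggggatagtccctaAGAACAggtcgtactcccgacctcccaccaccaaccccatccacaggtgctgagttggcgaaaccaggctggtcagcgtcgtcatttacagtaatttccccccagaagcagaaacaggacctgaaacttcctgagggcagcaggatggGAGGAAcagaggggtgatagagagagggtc
C1qc: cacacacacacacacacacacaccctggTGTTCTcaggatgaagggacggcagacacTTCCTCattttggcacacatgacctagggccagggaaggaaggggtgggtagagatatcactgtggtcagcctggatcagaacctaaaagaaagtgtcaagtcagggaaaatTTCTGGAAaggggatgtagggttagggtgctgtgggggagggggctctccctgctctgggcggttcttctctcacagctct
Fcna: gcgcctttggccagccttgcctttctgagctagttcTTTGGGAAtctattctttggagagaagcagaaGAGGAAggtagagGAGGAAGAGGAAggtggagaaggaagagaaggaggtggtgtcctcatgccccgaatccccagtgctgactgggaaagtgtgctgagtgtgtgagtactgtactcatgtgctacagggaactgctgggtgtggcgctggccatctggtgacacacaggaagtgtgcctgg
Vtn: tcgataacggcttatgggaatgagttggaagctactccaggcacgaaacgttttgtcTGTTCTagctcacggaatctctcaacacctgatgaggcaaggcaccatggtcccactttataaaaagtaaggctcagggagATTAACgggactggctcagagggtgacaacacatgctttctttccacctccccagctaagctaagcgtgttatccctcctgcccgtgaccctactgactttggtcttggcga
Mbl2: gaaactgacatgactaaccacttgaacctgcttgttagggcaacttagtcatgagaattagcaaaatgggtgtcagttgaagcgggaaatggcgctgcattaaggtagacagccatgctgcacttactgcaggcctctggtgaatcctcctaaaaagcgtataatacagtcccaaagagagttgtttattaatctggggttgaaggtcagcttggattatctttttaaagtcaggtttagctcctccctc

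The ETS/PU.1 core, a motif of a macrophage transcription factor, matched in C1qb, C1qc and 3 times in Fcna. It occurred in 3 of the 6 macrophage-made members with a promoter and in 0 of the 12 hepatocyte-made ones, against 25.9% of all 27025 genes in the table. C3ar1, C5ar1 and Cfp, the other macrophage-made members with a promoter, had no ETS/PU.1 match. They rose by 4.42, 3.13 and 3.35 in HO1 knockout against control, beside 3.79 for C1qb, 3.25 for C1qc and 0.71 for Fcna. The HNF1 motif, one of liver factors, matched in 6 of 12 hepatocyte-made members, Vtn among them, and in 1 of 6 macrophage-made members, against 7.49% of genes. C/EBP matched in 5 of 12 and 3 of 6 (40.3% of genes), STAT in 3 and 0 (8.13%), the glucocorticoid receptor motif in 3 and 2 (18.2%), and the E-box in 0 of the 22 (6.86%). Short motifs of this kind match often, and a match is a description of letters in a window.

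The 7 macrophage-made members all rose in HO1 knockout against control, with a median log2 difference of 3.25 (all genes tested, -0.04), and 6 of them did not pass the test in HO2 knockdown against control (median 0.07, all genes -0.07). The 18 hepatocyte-made members had a median log2 difference of 0.02 in HO1 knockout, near that of all genes. In HO2 knockdown it was 0.12, above the -0.07 of all genes, with 7 members up and 3 down. Single members moved far: Vtn rose and Mbl2 fell with either perturbation. Over all 29, HO1 knockout raised 12 and lowered 2 (12.8% of all genes were called at a limma adjusted p under 0.05, 5.62% higher and 7.2% lower), and HO2 knockdown raised 8 and lowered 4, against 33.2% of all genes called there, 16.5% higher and 16.7% lower. Combined against control had 12 higher and 5 lower (29.9% of genes called, 11.6% higher and 18.3% lower).

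HO2 shRNA within HO1-/- cells, combined against HO1 knockout, gave 10 higher and 8 lower members (23% of genes called, 10.2% higher and 12.8% lower). HO1 genotype under HO2 shRNA, combined against HO2 knockdown, gave 10 higher and 8 lower (34% of genes called, 13% higher and 21% lower). That split became 9 and 11 once arrays were centred on their medians. The split over all genes moved the same way, from 2591 higher and 4184 lower to 1723 and 5417. The interaction, which is the HO1 difference under HO2 shRNA minus that under scrambled shRNA, passed for 4 members upward and 5 downward (12.2% of genes called, 4.67% higher and 7.57% lower), or 2 and 6 with centred arrays, and for 16 members without control array 2. Over all genes the interaction passed for 932 upward and 1510 downward, for 678 and 1821 with centred arrays, and for 2495 and 2250 without control array 2, so the count over all genes grew with that of the members. HO2 shRNA left more Hmox2 signal in HO1-/- than in HO1+/+ cells: the log2 difference between combined and HO2 knockdown was 0.94 (limma adjusted p = 2.4e-08), and the part of this in the members' interactions was not tested. Comparisons with the same control share its arrays. Called and at least 2-fold were 9 members in HO1 knockout (1.53% of genes), 3 in HO2 knockdown (1.98%) and 9 in combined (3.02%), each set beside control. The same count was 2 for combined against HO1 knockout (1.49% of genes), 9 for combined against HO2 knockdown (1.63%) and 2 for the interaction (0.522%). Groups whose arrays did not overlap were common among all genes, and members are read against that: 22 members in HO1 knockout against control (46.1% of all genes), 20 in HO2 knockdown against control (65.4%) and 21 in combined against control (57.8%). It was 21 in combined against HO1 knockout (59.8%) and 23 in combined against HO2 knockdown (73.8%).

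**Figure D1:**
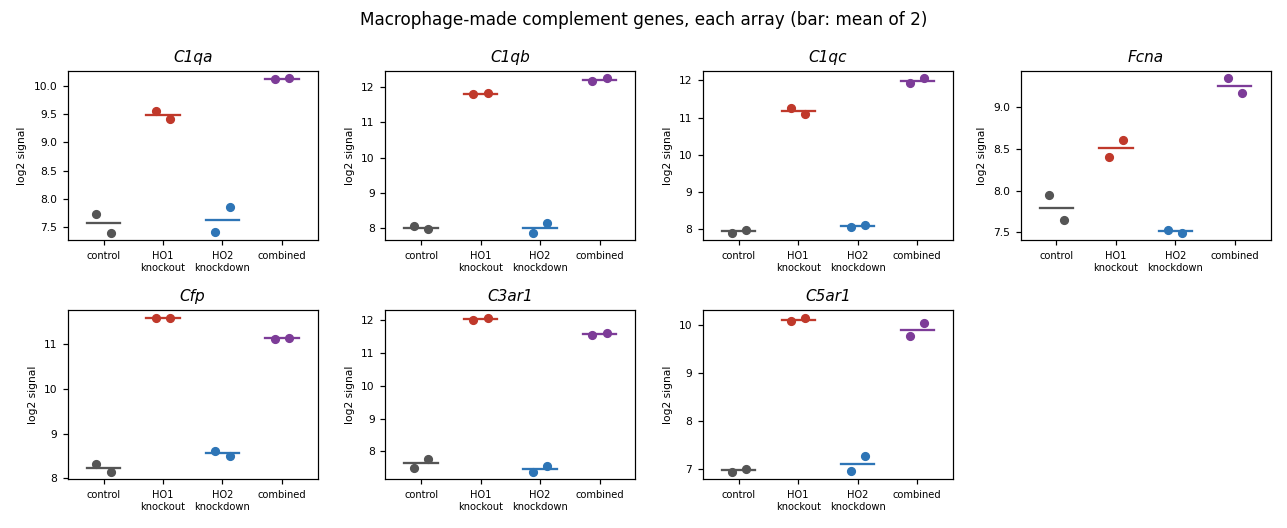
Log2 signal of the 7 macrophage-made members, with a panel for each gene, a point for each array and a bar at the mean of 2 arrays; vertical scales differ between panels. In every panel the 4 HO1-/- arrays (HO1 knockout and combined) lie above the 4 HO1+/+ arrays, and C1qa, C1qb, C1qc and Fcna are higher in combined than in HO1 knockout.

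C1q, the recognition unit of the classical pathway, is built from chains encoded by C1qa, C1qb and C1qc. C1qb had log2 signals of 8.07 and 7.97 in control, 11.80 and 11.82 in HO1 knockout, 7.88 and 8.15 in HO2 knockdown, and 12.17 and 12.25 in combined. C1qc had 7.91 and 7.96, 11.26 and 11.10, 8.06 and 8.11, and 11.93 and 12.05 in the same order of groups. C1qa had 7.73 and 7.40, 9.55 and 9.42, 7.41 and 7.85, and 10.12 and 10.13. All 3 chains separated HO1-/- from HO1+/+ arrays without overlap. In HO1 knockout against control, the log2 difference was 3.79 for C1qb (13.9-fold, SE 0.0799, limma adjusted p = 9.28e-15), 3.25 for C1qc (9.49-fold, SE 0.072, adjusted p = 1.29e-14) and 1.92 for C1qa (3.79-fold, SE 0.13, adjusted p = 1.35e-08).

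HO2 shRNA in HO1+/+ cells gave log2 differences of -0.00 for C1qb (95% interval -0.17 to 0.17), 0.15 for C1qc (-0.00 to 0.30) and 0.07 for C1qa (-0.20 to 0.34), none of which passed. In HO1-/- cells all 3 chains rose with HO2 shRNA, by 0.40 for C1qb (limma adjusted p = 0.0014), 0.81 for C1qc (3.74e-07) and 0.64 for C1qa (0.00127). The interaction was 0.66 for C1qc (SE 0.10, limma adjusted p = 0.00054), 0.40 for C1qb (SE 0.11, adjusted p = 0.0318) and 0.57 for C1qa (SE 0.18, adjusted p = 0.0491). Those of C1qa and C1qb did not hold: centring gave adjusted p = 0.0671 and 0.0597. The C1qa interaction was also lost without any array but control array 2 and HO2 knockdown array 2, falling to 0.35 (adjusted p = 0.232) without HO2 knockdown array 1. The C1qb interaction was lost in the same way, falling to 0.26 (adjusted p = 0.141) without that array.

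The other classical members were classed as hepatocyte-made, and their differences were small. C2, which supplies the protease of the classical C3 convertase, had log2 signals of 10.42 and 10.52 in control, 10.26 and 10.20 in HO1 knockout, 10.18 and 10.21 in HO2 knockdown, and 10.01 and 9.91 in combined. It fell by 0.24 in HO1 knockout (limma adjusted p = 0.0154), by 0.27 in HO2 knockdown (0.00272) and by 0.51 in combined (8.59e-06), with control as the base. The combined arrays were thus the lowest, with an interaction of 0.01 (95% interval -0.18 to 0.20). The fall in HO1 knockout did not pass without control array 2 (-0.19, adjusted p = 0.106) or HO1 knockout array 2 (-0.21, 0.125). Its falls in combined below HO1 knockout (-0.27) and below HO2 knockdown (-0.23) were lost without combined array 2 (adjusted p = 0.0744 and 0.104), and also without HO1 knockout array 1 (0.0523) or HO2 knockdown array 2 (0.056), respectively.

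C1ra encodes C1r, the protease that activates C1s within C1. In log2 signal it had 8.71 and 8.72 in control, 9.13 and 8.89 in HO1 knockout, 8.86 and 9.01 in HO2 knockdown, and 8.53 and 8.71 in combined. Neither perturbation alone passed in the main fit (0.29, limma adjusted p = 0.0545, and 0.22, adjusted p = 0.0883), while the interaction was -0.61 (SE 0.13, adjusted p = 0.00778). The rise in HO1 knockout did pass in limma with robust empirical Bayes (adjusted p = 0.0496), quantile scaling (0.0412) or dim genes left out (0.0448). That in HO2 knockdown passed with centred arrays (0.27, limma adjusted p = 0.048). The interaction was -0.49 (adjusted p = 0.0501) without HO1 knockout array 1 and -0.52 (0.0539) without combined array 1. C1ra also fell in combined against HO1 knockout (-0.39) and HO2 knockdown (-0.32), and both calls were lost without combined array 1 (adjusted p = 0.103 and 0.185), the first also without HO1 knockout array 1 (0.12) and the second without HO2 knockdown array 2 (0.155). A probe set shared by C1ra and its near copy C1rb was left out.

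C4b encodes C4, the other part of that convertase, and hybridisation of its near copy C4a to this probe set was not tested. It had log2 signals of 10.83 and 11.04 in control and 11.07 to 11.17 in the other 6 arrays. It was 0.22 higher in HO1 knockout (limma adjusted p = 0.0259) and 0.18 higher in combined (0.034) than in control. Without control array 1 these values were 0.12 (adjusted p = 0.233) and 0.08 (0.354). Leaving out either HO1 knockout array (0.131 and 0.0937) or either combined array (0.102 and 0.165) also ended the respective call. In HO2 knockdown the difference of 0.16 did not pass (adjusted p = 0.063) but did without control array 2 (0.26, 0.00316).

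The lectin pathway starts from mannose-binding lectins, collectin 11 or ficolins. Mbl2, a mannose-binding lectin of hepatocytes, fell furthest among the members. The signal was 10.72 and 10.73 in control, 9.61 and 9.57 in HO1 knockout, 9.68 and 9.72 in HO2 knockdown, and 8.60 and 8.64 in combined. Both single perturbations lowered it by a similar amount and the combined arrays were lower again, with no overlap of either with control or combined. Against control the log2 difference was -1.13 in HO1 knockout (2.19-fold lower, SE 0.063, limma adjusted p = 1.67e-09), -1.02 in HO2 knockdown (2.03-fold lower, adjusted p = 4.55e-09) and -2.11 in combined (4.30-fold lower, adjusted p = 3.74e-13). The interaction was 0.05 (95% interval -0.14 to 0.24, adjusted p = 0.755).

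Mbl1, the other mannose-binding lectin, was at 6.18 to 6.38 in control and HO1 knockout array 1, 6.52 in HO1 knockout array 2, 6.85 and 6.73 in HO2 knockdown, and 6.39 and 6.67 in combined. It rose in HO2 knockdown (0.54, SE 0.11, limma adjusted p = 0.00162) and passed in no other comparison in the main fit. Mbl1 fell in combined against HO2 knockdown with centred arrays (-0.33, limma adjusted p = 0.0339) and with array weights (-0.26, 0.041). With quantile scaling its interaction passed (-0.52, limma adjusted p = 0.0444). Its 0.28 in combined against control (adjusted p = 0.0861) passed without control array 1 (0.35, 0.0421) or combined array 1 (0.41, 0.0432). Colec11, encoding collectin 11, ranged from 7.48 to 7.92. In the main fit it passed only in combined against HO2 knockdown (0.32, limma adjusted p = 0.0385). That call was lost without any of the 4 arrays compared, with values of 0.25 to 0.39. The Colec11 interaction of 0.43 did not pass in the main fit (limma adjusted p = 0.0952). It was 0.47 without control array 2 and 0.60 without HO1 knockout array 2, so it also rests on single arrays.

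Fcna encodes ficolin A, a lectin of macrophages. Log2 signals were 7.95 and 7.65 in control, 8.41 and 8.61 in HO1 knockout, 7.53 and 7.50 in HO2 knockdown, and 9.35 and 9.17 in combined. It rose by 0.71 in HO1 knockout against control (1.64-fold, SE 0.11, limma adjusted p = 0.00025) and by 1.74 in combined against HO2 knockdown (3.35-fold, adjusted p = 7.28e-09). The interaction was 1.03 (SE 0.15, adjusted p = 0.000445), so the HO1 difference was larger under HO2 shRNA. HO2 knockdown against control gave -0.28, which did not pass (adjusted p = 0.058) but did without control array 2 (-0.43, 0.0048).

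Masp1 and Masp2 encode the proteases that ride on these lectins. Masp2, which cleaves C4 and C2, had log2 signals of 8.05 and 8.12 in control, 8.02 and 8.19 in HO1 knockout, 9.05 and 8.88 in HO2 knockdown, and 8.61 and 8.60 in combined. It rose by 0.88 with HO2 shRNA in HO1+/+ cells (1.84-fold, SE 0.090, limma adjusted p = 1.48e-06) and by 0.50 in HO1-/- cells (adjusted p = 0.000608). The interaction of -0.38 did not pass (adjusted p = 0.0632, and 0.0435 with centred arrays). Combined was 0.36 below HO2 knockdown on average (log2 difference -0.36, adjusted p = 0.00584, lost at 0.1 without HO2 knockdown array 1). Masp1 had 11.48 and 11.57, 11.60 and 11.66, 11.86 and 11.79, and 11.88 and 11.79 in the order of groups used above. It rose by 0.30 with HO2 shRNA in HO1+/+ cells (adjusted p = 0.000317) and by 0.20 in HO1-/- cells (0.00771). The latter call was lost without HO1 knockout array 1 (0.0791) or combined array 1 (0.119).

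The alternative pathway was read through properdin and factor B. Cfp encodes properdin, which stabilises the alternative C3 convertase and is made by myeloid cells. Its log2 signal was 8.32 and 8.15 in control, 11.59 and 11.58 in HO1 knockout, 8.62 and 8.50 in HO2 knockdown, and 11.13 and 11.13 in combined. Cfp was 3.35 higher in HO1 knockout than in control (10.2-fold, SE 0.070, limma adjusted p = 9.28e-15) and 2.57 higher in combined than in HO2 knockdown (adjusted p = 1.52e-13). It was the macrophage-made member that passed in HO2 knockdown against control (0.33, adjusted p = 0.00186), and in HO1-/- cells HO2 shRNA went the other way (-0.45, adjusted p = 0.00014). The interaction was -0.78 (SE 0.099, adjusted p = 0.000126).

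Cfb encodes factor B, the protease of the alternative convertase; it was classed as hepatocyte-made, though macrophages make it too, and its source in this bulk RNA was not tested. Log2 signals of Cfb were 11.68 and 11.78 in control, 12.01 and 12.04 in HO1 knockout, 11.19 and 11.16 in HO2 knockdown, and 11.52 and 11.41 in combined. The 4 groups did not overlap, with HO1 knockout highest and HO2 knockdown lowest. HO1-/- arrays were higher by 0.30 under scrambled shRNA (1.23-fold, SE 0.052, limma adjusted p = 0.000907) and by 0.29 under HO2 shRNA (adjusted p = 0.000557). HO2 shRNA lowered Cfb by similar amounts in both genotypes, at -0.56 in HO1+/+ (adjusted p = 5.51e-07) and -0.57 in HO1-/- cells (6.38e-07), with an interaction of -0.01 (95% interval -0.17 to 0.15).

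**Figure D2:**
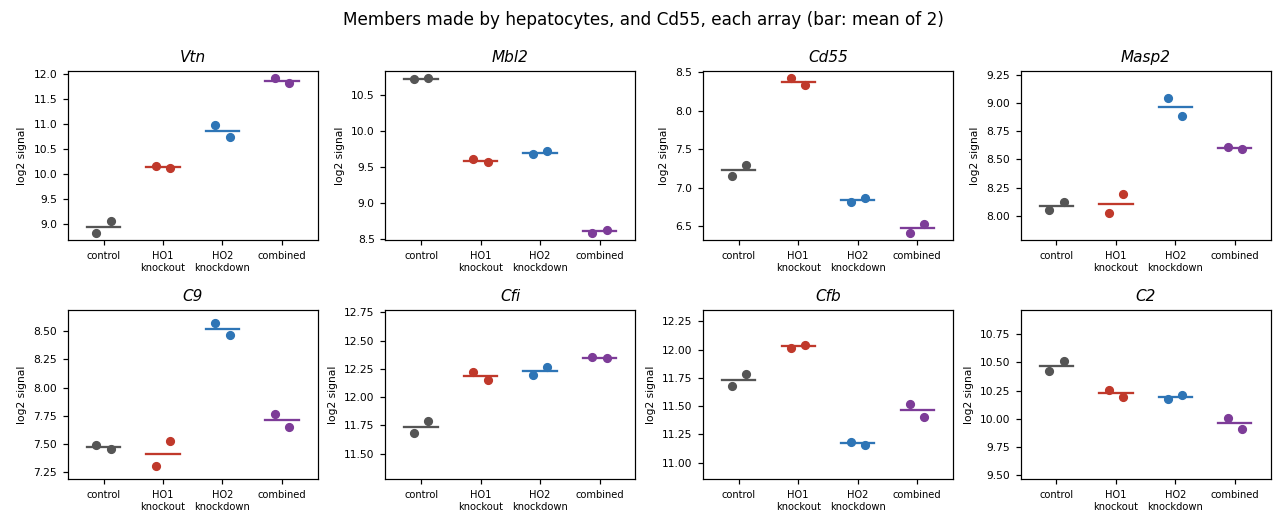
Log2 signal of 7 hepatocyte-made members and Cd55, a point for each array and a bar at the mean of 2; vertical scales differ between panels. Vtn climbs and Mbl2 drops from control to combined with both single perturbations between them, C9 and Masp2 are highest in HO2 knockdown, and Cd55 is highest in HO1 knockout and lowest in combined.

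The terminal pathway builds the membrane attack complex from C5 (gene Hc) to C9. None of its 6 members passed in HO1 knockout or in combined, each against control. C9, whose product forms the ring of the pore, had log2 signals of 7.49 and 7.45 in control, 7.30 and 7.53 in HO1 knockout, 8.57 and 8.47 in HO2 knockdown, and 7.76 and 7.66 in combined. The HO2 knockdown arrays stood above the other 6. C9 rose by 1.05 in HO2 knockdown against control (2.07-fold, SE 0.10, limma adjusted p = 7.15e-07), and the interaction was -0.75 (SE 0.14, adjusted p = 0.00272). In HO1-/- cells HO2 shRNA gave 0.29 (adjusted p = 0.0457), a call that did not hold without HO1 knockout array 1 (0.18, adjusted p = 0.405), either HO2 knockdown array (0.0685 and 0.0681) or either combined array (0.292 and 0.0976).

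Hc had log2 signals of 8.22 and 8.48 in control, 8.20 and 8.26 in HO1 knockout, 8.78 and 8.68 in HO2 knockdown, and 8.44 and 8.25 in combined. It was 0.38 higher in HO2 knockdown than in control (limma adjusted p = 0.00863), but 0.25 without control array 1 (adjusted p = 0.0844) and 0.33 without HO2 knockdown array 1 (0.0916). Combined lay below HO2 knockdown (-0.38, adjusted p = 0.00853, lost at 0.0951 without HO2 knockdown array 1 and at 0.124 without combined array 2). C8a, encoding the alpha chain of C8, ranged from 6.62 to 7.18 and rose in combined against HO1 knockout (0.36, adjusted p = 0.0213). Without HO1 knockout array 1 that value was 0.25, and without combined array 2 it was 0.27, and neither passed. The C8a interaction of 0.47 did not pass in the main fit (limma adjusted p = 0.0533). That interaction passed in limma with robust empirical Bayes (adjusted p = 0.0497) or dim genes left out (0.0439). C8b (7.10 to 7.52), C6 (5.79 to 6.10) and C7 (at most 6.43) passed in no comparison over all 8 arrays. Without control array 2, C7 in HO2 knockdown against control moved from -0.08 to -0.30 (limma adjusted p = 0.0383).

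Fluid-phase regulators hold the cascade in check in plasma. Vtn encodes vitronectin, an adhesive plasma protein that keeps the terminal complex from inserting into membranes, and it rose more than any other hepatocyte-made member in each of the other groups against control. Its log2 signal was 8.83 and 9.07 in control, 10.15 and 10.13 in HO1 knockout, 10.97 and 10.74 in HO2 knockdown, and 11.91 and 11.82 in combined. The 4 groups did not overlap and stood in that order. Against control the log2 difference was 1.19 in HO1 knockout (2.28-fold, SE 0.082, limma adjusted p = 2.51e-08), 1.90 in HO2 knockdown (3.74-fold, adjusted p = 7.19e-11) and 2.91 in combined (7.52-fold, adjusted p = 1.8e-13). The interaction was -0.18 (95% interval -0.43 to 0.07, adjusted p = 0.324).

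Cfi encodes factor I, the protease that cuts C3b and C4b. Cfi had log2 signals of 11.69 and 11.79 in control, 12.22 and 12.16 in HO1 knockout, 12.19 and 12.27 in HO2 knockdown, and 12.36 and 12.34 in combined. It rose by 0.45 in HO1 knockout (1.37-fold, SE 0.048, limma adjusted p = 4.65e-06), 0.50 in HO2 knockdown (7.47e-07) and 0.62 in combined (4.78e-08) over control. The interaction was -0.33 (adjusted p = 0.00449), so the combined rise was smaller than the sum of the single ones on the log2 scale; a fit without the mean-variance trend gave 0.0676. The rise in combined against HO1 knockout (0.16, adjusted p = 0.0202) was lost without HO1 knockout array 2 (0.144) or either combined array (0.119 and 0.0876).

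C4bp, encoding the C4b-binding protein that assists factor I, had log2 signals of 8.17 and 8.42 in control, 8.33 and 8.36 in HO1 knockout, 8.20 and 8.09 in HO2 knockdown, and 7.86 and 7.74 in combined. The combined arrays were below the other 6. C4bp fell by 0.49 in combined against control (limma adjusted p = 0.00104) and by 0.54 against HO1 knockout (0.000631). Its fall against HO2 knockdown (-0.35, adjusted p = 0.0134) was lost without HO2 knockdown array 1 (0.129) or combined array 2 (0.127), and neither single perturbation passed. Clu, encoding clusterin, another inhibitor of the terminal complex, stayed between 13.56 and 13.63 in all 8 arrays, with no call.

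Membrane regulators protect the cells that carry them. Cd55 encodes decay-accelerating factor, which takes C3 convertases apart. Its log2 signal was 7.15 and 7.30 in control, 8.42 and 8.34 in HO1 knockout, 6.81 and 6.87 in HO2 knockdown, and 6.42 and 6.53 in combined. HO1 knockout was the highest group and combined the lowest, with no overlap among the 4. Cd55 rose by 1.15 in HO1 knockout against control (2.22-fold, SE 0.10, limma adjusted p = 4.17e-07), and fell by 0.75 in combined against control (adjusted p = 2.07e-05). HO2 shRNA lowered it by 1.91 in HO1-/- cells (log2 difference -1.91, 3.75-fold lower, adjusted p = 9.94e-10).

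The Cd55 interaction, -1.52 (SE 0.14, limma adjusted p = 5.86e-06), was the largest in size among the members. HO2 shRNA in HO1+/+ cells gave -0.39 (adjusted p = 0.00696, lost at 0.0656 without HO2 knockdown array 1). Combined against HO2 knockdown gave -0.37 (adjusted p = 0.0103, lost at 0.0726 without HO2 knockdown array 2 and at 0.107 without combined array 1). Cd59a, encoding the inhibitor of C9 assembly, stayed between 11.94 and 12.14, and Cr1l, encoding the rodent regulator Crry, between 8.97 and 9.25. Neither passed in any comparison in the main fit. With centred arrays both fell in combined against HO2 knockdown (-0.18 and -0.25, limma adjusted p = 0.00878 and 0.0291). Array weights without centring gave -0.12 and -0.19 there, which also passed (limma adjusted p = 0.0369 and 0.0356). Cd55 and Cd59a each have a near copy, Cd55b and Cd59b, and shared hybridisation was not tested.

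C3ar1 and C5ar1 encode the receptors through which C3a and C5a act on leukocytes. C3ar1 had log2 signals of 7.50 and 7.75 in control, 12.02 and 12.08 in HO1 knockout, 7.38 and 7.54 in HO2 knockdown, and 11.55 and 11.61 in combined. C5ar1 had 6.95 and 7.01, 10.07 and 10.15, 6.95 and 7.27, and 9.76 and 10.03. For both receptors all HO1-/- arrays lay above all HO1+/+ arrays. C3ar1 was 4.42 higher in HO1 knockout than in control (21.4-fold, SE 0.084, limma adjusted p = 5.72e-15), the largest difference among the members, and 4.12 higher in combined than in HO2 knockdown (17.4-fold, adjusted p = 7.03e-15). For C5ar1 these differences were 3.13 (8.74-fold, SE 0.11, adjusted p = 3.48e-12) and 2.78 (6.88-fold, adjusted p = 1.79e-11).

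HO2 shRNA in HO1+/+ cells gave -0.17 for C3ar1 (95% interval -0.35 to 0.01) and 0.13 for C5ar1 (-0.10 to 0.37), neither past the test; without control array 1 C3ar1 gave -0.30 and passed (limma adjusted p = 0.0114). In HO1-/- cells it lowered C3ar1 (-0.46, limma adjusted p = 0.000587), and C5ar1 gave -0.21 (adjusted p = 0.201). The interactions of -0.29 and -0.35 did not pass (adjusted p = 0.12 and 0.158), though that of C3ar1 did without control array 2 (-0.42, 0.0109). C3ar1, Cfp and the C1q chains thus parted under HO2 shRNA in HO1-/- cells: C3ar1 and Cfp fell there while C1qa, C1qb, C1qc and Fcna rose.

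**Figure D3:**
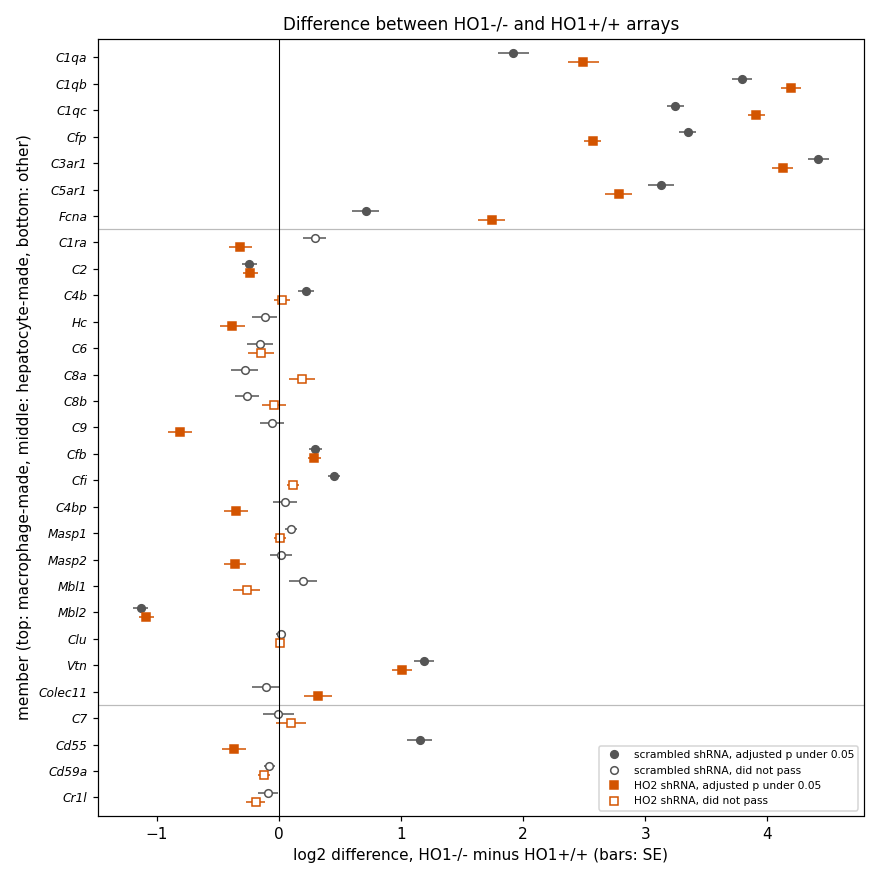
Log2 difference between HO1-/- and HO1+/+ arrays for each of the 29 members, under scrambled shRNA (circles) and HO2 shRNA (squares); bars are SEs and filled symbols passed at an adjusted p under 0.05. The 7 macrophage-made members at the top lie to the right under both hairpins, and Mbl2 lies at -1.13 and -1.08.

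Markers of macrophages moved with the macrophage-made members. Of 22 macrophage and Kupffer cell markers 21 were measured. In HO1 knockout against control 16 rose, 1 fell and 4 did not pass (median log2 difference 2.42), beside 12.8% of all genes called. Lyz2, encoding lysozyme, rose by 4.54 ( limma adjusted p = 4.16e-15), the tetraspanin gene Cd53 by 4.29 (5.72e-15), Laptm5 by 4.02 (1.27e-15) and Fcer1g, encoding the common Fc receptor gamma chain, by 3.95 (9.28e-15). The markers' summed linear signal was 9295 to 9814 in control, 51297 to 52268 in HO1 knockout, 7866 to 8119 in HO2 knockdown and 45333 to 47990 in combined. Genes of resident Kupffer cells were mixed in HO1 knockout: Cd5l rose (1.41, adjusted p = 2.08e-06), Vsig4 fell (-1.07), and Clec4f (-0.04), Timd4 (-0.05) and Marco (0.15) did not pass. The part of macrophage content in the results for the macrophage-made members was not tested, and in bulk RNA fewer cells of a type and less RNA per cell cannot be told apart.

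In HO2 knockdown against control 0 of the 21 macrophage markers rose and 6 fell (median -0.12), with Mpeg1 at -0.60, Cd53 at -0.44, Cd14 at -0.30 and Fcer1g at -0.29. Of all genes, 33.2% were called there, 16.5% higher and 16.7% lower. In combined against HO1 knockout 1 rose and 5 fell (median -0.02), beside 23% of all genes called, 10.2% higher and 12.8% lower. Adgre1, a macrophage surface receptor gene, fell there from 11.19 and 11.21 to 9.80 and 10.02 (-1.29, limma adjusted p = 1.17e-07). C1qa, C1qb, C1qc and Fcna rose in that comparison and C3ar1 and Cfp fell. Of the 12 neutrophil markers 3 rose and 9 did not pass in HO1 knockout against control. Their summed linear signal was 2470 to 2551 in control and 4882 to 5079 in HO1 knockout. It was 1330 to 1343 in HO2 knockdown and 3105 to 3118 in combined. That sum is weighted to the brightest genes. Mmp8 went from log2 signals of 6.77 and 6.72 in control to 11.43 and 11.34 in HO1 knockout. Mmp9 went from 10.61 and 10.58 in control to 8.98 and 8.93 in HO2 knockdown. None of the 9 T and NK cell markers and 0 of the 5 B cell markers passed in HO1 knockout against control. Stellate cell markers fell for 10 of 16 in HO1 knockout against control, and sinusoidal endothelial markers rose for 3 of 14. Beside these counts, 5.62% of all genes were called higher and 7.2% lower. Stellate cell markers rose for 11 of 16 and fell for 2 in combined against HO1 knockout (10.2% of all genes higher, 12.8% lower). Sinusoidal endothelial markers rose for 5 of 14 and fell for 1 in HO2 knockdown against control (16.5% of all genes higher, 16.7% lower). The part of these cell types was not tested.

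Hepatocyte markers moved mainly with HO2 shRNA. Of 18 listed 16 were measured, of which 13 rose and 1 fell in HO2 knockdown against control (median 0.88, 33.2% of all genes called). In HO1 knockout 9 rose and 2 fell (median 0.21, 12.8% of all genes called). In HO2 knockdown Cps1, of the urea cycle, rose by 2.99 (limma adjusted p = 2.58e-14), the apolipoprotein gene Apoa2 by 2.80 (9.36e-14), Tat, a glucocorticoid-responsive enzyme of tyrosine breakdown, by 2.37 (2.58e-14) and Apoa1 by 2.32 (1.31e-11). In HO1 knockout Ambp rose by 1.10 (1.96e-11), Cps1 by 0.76 (2.04e-07), Tat by 0.62 (7.65e-08) and Ahsg by 0.61 (5.92e-09). Their summed linear signal was 58835 to 60208 in control, 69535 to 69645 in HO1 knockout, 105237 to 108342 in HO2 knockdown and 112747 to 114610 in combined. Vtn, C9, Masp2, Masp1, Mbl1, Hc and Cfi rose with HO2 shRNA beside them, while Mbl2, Cfb and C2, also hepatocyte-made, fell; the part of hepatocyte content in these results was not tested.

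**Figure D4:**
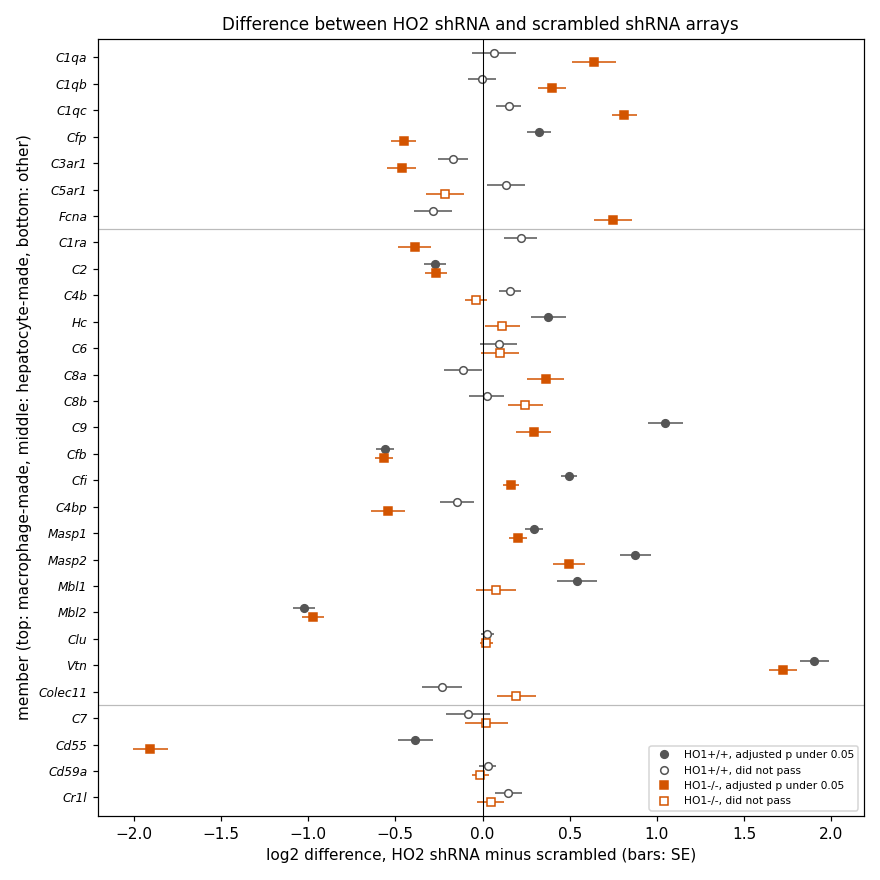
Log2 difference between HO2 shRNA and scrambled shRNA arrays for each of the 29 members, in HO1+/+ (circles) and HO1-/- cells (squares); bars are SEs and filled symbols passed at an adjusted p under 0.05. Vtn lies furthest right at 1.90 and 1.72, Mbl2 lies at -1.02 and -0.97, and Cd55 moves from -0.39 to -1.91 between the genotypes.

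Of 36 other complement genes 27 were measured. In HO1 knockout against control 6 rose, 1 fell and 20 did not pass (12.8% of all genes were called). In HO2 knockdown 5 rose, 3 fell and 19 did not pass, near the share of all genes called there (33.2%). Cd93, a surface glycoprotein once described as a C1q receptor, rose by 4.25 in HO1 knockout (SE 0.082, limma adjusted p = 5.72e-15), and Itgam and Itgb2, the chains of complement receptor 3, by 3.85 (9.28e-15) and 3.26 (6.6e-13). Vsig4, the complement receptor of resident Kupffer cells and also on the macrophage marker list, fell instead. Its log2 signal was 7.27 and 7.58 in control, 6.24 and 6.47 in HO1 knockout, 7.56 and 7.24 in HO2 knockdown, and 7.69 and 7.71 in combined. The fall was 1.07 in HO1 knockout (log2 difference -1.07, adjusted p = 2.17e-05), and the interaction was 1.37 (adjusted p = 0.000185).

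In HO2 knockdown against control Cd93 rose by 0.90 (limma adjusted p = 3.77e-07), and Cpn1 and Cpn2, the catalytic and regulatory subunits of the carboxypeptidase N that inactivates anaphylatoxins, both rose by 0.64 (5.06e-08 and 0.000119). C1s1, encoding the protease C1s that C1r activates, had log2 signals of 10.34 and 10.39 in control, 10.38 and 10.26 in HO1 knockout, 9.96 and 9.87 in HO2 knockdown, and 9.25 and 9.15 in combined. It was lowest in combined, and fell by 0.45 in HO2 knockdown (log2 difference -0.45, adjusted p = 8.62e-05) and by 1.12 in combined against HO1 knockout (-1.12, adjusted p = 5.21e-09). Its interaction was -0.67 (adjusted p = 0.000281), beside -0.61 for C1ra, the gene of its partner protease.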

How the data were processed

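Total RNA (300 ng an array, per the labels' protocols) of 8 samples was hybridised to whole-transcript arrays. The deposited values are log2 signals of probe sets after the authors' RMA step, for which the submitters' processing notes name affy and R 2.15.0. No source used here gives the chip definition or genome build. Of 34760 probe sets 21640 carried 1 gene symbol and were used, and 1321 with several and 11799 without one stayed out. Where more than 1 probe set named a gene (953 genes) the brightest stood for it, giving 19938 genes, of which 19855 matched RefSeq (GRCm38.p6).

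The log2 values were fitted in limma (3.58.1, R 4.3.3) as 4 group means over 8 arrays, with a mean-variance trend, 4 residual and 11.2 prior degrees of freedom. For 6 comparisons two-sided p-values were adjusted over all genes by Benjamini-Hochberg and called at an adjusted p under 0.05. SE is the moderated standard error, SDs rest on 2 arrays, and log2 differences understate large changes of dim probe sets. Whole arrays carry no read depth, and their number limits precision. Named genes are all members, Hmox1, Hmox2 and the 4 genes with the smallest p of the other complement genes and of the macrophage and hepatocyte markers in HO1 knockout and in HO2 knockdown against control. Alb, Ttr, Asgr1, Cyp2e1, Cyp3a11, G6pc, Adgre1, Cd5l, Clec4f, Timd4, Marco, Mmp8 and Mmp9 were named outside that rule, after their values were seen. Members, classes and lists were chosen with earlier results of these data known. Alternatives (21 settings) changed the variance model, array weights, scaling, dim genes, probe set choice, thresholds and replicates, and the fit was tested on simulated data.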

Additional observations from a re-analysis of the deposited data

Results flagged for a closer look

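The difference between HO1-/- and HO1+/+ arrays was not the same under scrambled and HO2 shRNA for 9 members, by limma's interaction term at an adjusted p under 0.05 over all genes (12.2% of all genes passed). It was larger under HO2 shRNA for Fcna (interaction 1.03), C1qc (0.66), C1qa (0.57) and C1qb (0.40), of which the last pair did not pass with centred arrays. It was lower, counted with its sign, for Cd55 (-1.52), Cfp (-0.78), C9 (-0.75), C1ra (-0.61) and Cfi (-0.33). For Cd55 the HO1 difference was 1.15 under scrambled and -0.37 under HO2 shRNA, and for C9 it was -0.06 and -0.81. Hmox2 itself had an interaction of 0.84 (limma adjusted p = 3.86e-05), with less signal lost to HO2 shRNA in HO1-/- cells, and its part in these results was not tested. No group held enough arrays for a test of single outlying samples.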

How the results depend on the processing

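With 2 arrays a group, small differences rest on single arrays. Of 174 member results 88 were called, and 22 of these were lost under at least 1 alternative other than a stricter threshold; no called value changed sign. Requiring at least 2-fold left 9, 3, 9, 2, 9 and 2 members called in HO1 knockout, HO2 knockdown and combined against control, combined against HO1 knockout and HO2 knockdown, and the interaction (14, 12, 17, 18, 18 and 9 without it). Leaving out each array gave 6 to 16 members for the interaction. With each array left out in turn, the median log2 difference of the hepatocyte-made members ran from -0.027 to 0.067 for HO1 knockout, 0.065 to 0.19 for combined against HO1 knockout, -0.12 to -0.024 for combined against HO2 knockdown and -0.22 to -0.054 for the interaction. That of the macrophage-made members ran from -0.14 to 0.18 for HO2 knockdown, 2.89 to 3.05 for combined against control, 2.63 to 2.94 for combined against HO2 knockdown and 0.26 to 0.54 for the interaction. Centring gave hepatocyte-made medians of 0.18 for HO2 knockdown and -0.16 for combined against HO2 knockdown, and quantile scaling -0.082 for the interaction. Centring shifts all genes of an array by the same amount. The medians over all genes moved with it, from -0.066 to -0.013 for HO2 knockdown and from 0.022 to -0.042 for combined against HO2 knockdown. Leaving out C2, Cfb and C1ra gave 0.16, -0.039 and -0.18 for combined against HO1 knockout, against HO2 knockdown and the interaction. The cause of the changes other than those with centring was not tested. Apart from arrays left out, limma calls were lost with centred arrays for C4b in HO1 knockout and combined against control (adjusted p = 0.0776 and 0.0814) and Colec11 in combined against HO2 knockdown (0.0819). In that last comparison quantile scaling ended those of C1ra (0.0506), C2 (0.0714) and Colec11 (0.0753). Without the mean-variance trend C2 (0.0635) and C4b (0.127) were lost in HO1 knockout, C4b in combined against control (0.123), and Cfi (0.14) and Masp1 (0.0725) in combined against HO1 knockout, as were the interactions of C1qa (0.115), C1qb (0.0938) and Cfi (0.0676). Centring also ended the interactions of C1qa (0.0671) and C1qb (0.0597), robust empirical Bayes (0.0569) and the least bright probe set (0.0568) that of C1qa, and a fit of only the 4 arrays compared C4b in HO1 knockout (0.062).

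Same-numbered arrays did not pair: their deviations from group means correlated between -0.26 and 0.12. With the replicate number as a block the member counts were 14, 12, 17, 17, 18 and 8 in the order above; C9 in combined against HO1 knockout (adjusted p = 0.0635) and the C1qa interaction (adjusted p = 0.0529) were lost. With control numbers crossed, chosen after seeing the data, the counts were 14, 14, 17, 18, 18 and 11. The counts over all genes moved with these. For the interaction they were 932 upward and 1510 downward in the main fit, 839 and 1488 with the block, and 1189 and 1765 crossed. For HO2 knockdown against control they were 3293 and 3327 in the main fit and 3464 and 3675 crossed.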
